A study of Mus musculus with 3 samples.

Results

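Nestin and 9 related intermediate filament genes were followed in cells sorted from mouse bone marrow by a nestin reporter. The set held the type III genes Vim, Des, Gfap and Prph, the type IV genes Nefl, Nefm, Nefh and Ina, and Nes and Synm, which encode large filament partners. Members were chosen by symbol from the array annotation, with 155 probesets that each name exactly 1 of these genes. All 10 were among the 18865 genes measured with at least 4 probesets, and the array had 318760 probesets with a single symbol in all. Of the 155 member probesets, 0 had a value of exactly 0 on any array.

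The samples form 1 group of 3 arrays and no control. They hold RNA of freshly isolated GFP+ marrow cells from C57BL/6 mice carrying GFP under the promoter of the nestin gene, collected by flow sorting. The sources used here give neither the age of the mice nor the number of sorted cells, nor whether each array had its own mouse. The p-values below therefore cover the spread of these 3 arrays alone, and part of it may be technical. The label says that reporter protein was present, and no GFP probeset was analysed here. In bulk RNA of this kind, fewer cells of a type and less RNA per cell cannot be told apart.

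Intermediate filaments are ropes of coiled-coil proteins that carry mechanical load through the cytoplasm. Vimentin is the usual filament protein of mesenchymal and endothelial cells, desmin that of muscle and some pericytes, glial fibrillary acidic protein (Gfap) that of astrocytes and non-myelinating Schwann cells, and peripherin, the neurofilament proteins and alpha-internexin are those of neurons. Nestin and synemin do not form filaments well alone and assemble with vimentin or desmin. Nestin is best known from neural progenitors, and in marrow its reporter marks perivascular stromal cells.

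The promoter of Nes is shown because the nestin promoter drives the reporter, although the sequence of the transgene itself was not used here. Those of Vim and Des are shown because both genes lay above the background described below. This choice was made after their values were seen, and the result for Des depended on the threshold. Synm also lay above that background and had a matched promoter, which is not shown. RefSeq sequences of build GRCm38.p6 were matched for 7 of the 10 members, and the 250 bases before the start were searched on both strands for the GC box GGGCGG, the TATA box TATAAA and the AP-1 site TGANTCA. Capitals mark matches, which did not overlap in these 3 promoters. The Nes window lies at chr3:87970843-87971092 on the plus strand, the Vim window at chr2:13574061-13574310 on the plus strand and the Des window at chr1:75360042-75360291 on the plus strand.
Nes: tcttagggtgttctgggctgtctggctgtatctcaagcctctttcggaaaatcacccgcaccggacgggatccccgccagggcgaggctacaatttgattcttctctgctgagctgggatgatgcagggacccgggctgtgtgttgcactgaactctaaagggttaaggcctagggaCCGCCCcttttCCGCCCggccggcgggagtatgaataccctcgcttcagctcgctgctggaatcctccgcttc
Vim: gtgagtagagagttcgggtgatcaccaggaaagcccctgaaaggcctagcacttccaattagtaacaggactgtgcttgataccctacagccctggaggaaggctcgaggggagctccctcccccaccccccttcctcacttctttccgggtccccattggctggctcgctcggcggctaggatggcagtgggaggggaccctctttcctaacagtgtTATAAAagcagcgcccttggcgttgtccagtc
Des: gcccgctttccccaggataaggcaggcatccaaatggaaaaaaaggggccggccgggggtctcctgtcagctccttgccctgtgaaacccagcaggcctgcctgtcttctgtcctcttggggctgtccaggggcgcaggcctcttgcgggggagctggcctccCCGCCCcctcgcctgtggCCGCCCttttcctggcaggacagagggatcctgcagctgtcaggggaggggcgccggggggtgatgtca
Nes held 2 GC boxes, beginning 73 and 62 bases before the start, Des held 2, and Vim held a TATA box that begins 32 bases before the start. Of the 7 windows 4 held a GC box, 2 a TATA box and 0 an AP-1 site, while among all 32851 RefSeq windows of this length 32.7%, 12.4% and 6.75% did. These are matches of letters and say nothing of binding.

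The probesets of a gene were summarised by their median on the deposited log2 scale, and this gene value was set against a threshold of the same array. That threshold was the 95th percentile of 355 olfactory, vomeronasal and taste receptor genes, which marrow cells should not express. It lay at 5.40, 5.66 and 5.64 on arrays 1, 2 and 3. These 355 genes had a median of 5 probesets each, beside a median of 13 for all genes and 23 probesets for Nes. The threshold was not matched for the number of probesets, and the effect of this was not tested. A gene was called above background at an adjusted p below 0.05 in a one-sided limma test with Benjamini-Hochberg correction across the 18865 genes. Of all genes 50.6% were called, and of the 10 filament genes 4 were called, namely Vim, Des, Synm and Nefm. The median margin of the 10 genes over the threshold was 0.16 on the log2 scale, and that of all genes was 0.50. Probes differ in affinity, so levels of different genes are not ranked.

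**Figure D1:**
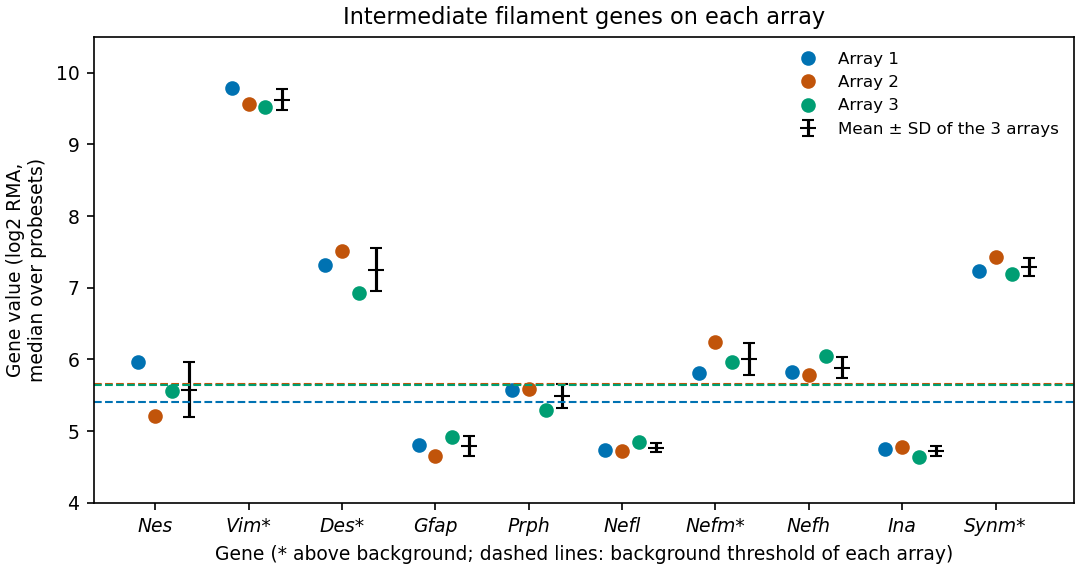
Value of each intermediate filament gene on the 3 arrays (log2 RMA, median over probesets), with the mean ± SD and each array's background threshold as a dashed line of its colour; the lines of arrays 2 and 3 nearly coincide. Vim stands above 9.5 on all arrays, Des and Synm between 6.93 and 7.51, and Nes crosses its thresholds.

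Nes itself did not pass. It measured 5.97 on array 1, 5.21 on array 2 and 5.56 on array 3, with a mean of 5.58 ± 0.38 (SD, n = 3). It was 0.57 above the threshold on array 1, while its margins on arrays 2 and 3 were -0.45 and -0.08. Its mean margin was 0.01 with an SE of 0.23 (adjusted p = 0.757, limma). The SD of Nes was the widest of the 10 genes, whose SDs otherwise lay between 0.065 and 0.295. The mean margin was -0.27 without array 1, 0.24 without array 2 and 0.06 without array 3, and the gene was not called in any of these fits. Absence of the transcript cannot be read from this.

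Few single probesets of Nes passed either. A probeset was tested in the same way against the 95th percentile of the 3983 chemosensory probesets, at 7.00, 7.22 and 7.00 on arrays 1, 2 and 3, with adjustment over all 318760 named probesets, of which 20.5% were called. Over the 10 genes 33 of 155 probesets were called (21.3%). Of the 23 Nes probesets 1 was called, also 1 at an unadjusted p below 0.05. That probeset, 5005084, stood at 10.01 on array 1, 9.68 on array 2 and 9.88 on array 3. Its mean lay 2.78 above the threshold (adjusted p = 0.00116, limma). Probeset 5320668 had 7.37, 7.41 and 7.13, and its margin of 0.23 did not pass (adjusted p = 0.493, limma). These were the 2 of 23 probesets that exceeded the threshold on each array, and 13 lay below it on every array. Probeset 5005084 was called again without array 1 (adjusted p = 0.00761, limma), without array 2 (0.0201) and without array 3 (0.0114). It lost the call with the 99th percentile of the chemosensory probesets as threshold, where 4.91% of all named probesets were called. The exon it covers was not given in the sources used here.

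Stromal genes of the same arrays were far above the background. All 12 perivascular stroma genes were called, with a median margin of 5.14, and 11 of the 12 had over 50% of their probesets called. Lepr, the leptin receptor gene, had 11.39, 11.50 and 11.27 on arrays 1, 2 and 3, and 33 of its 33 probesets were called. Cxcl12, the chemokine of the stem cell niche, had 10 of 10 called, and Pdgfra, a growth factor receptor of stromal cells, 29 of 33. The exception was Foxc1, a forkhead transcription factor gene, with 5 of 12, which was chosen after its values were seen.

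**Figure D2:**
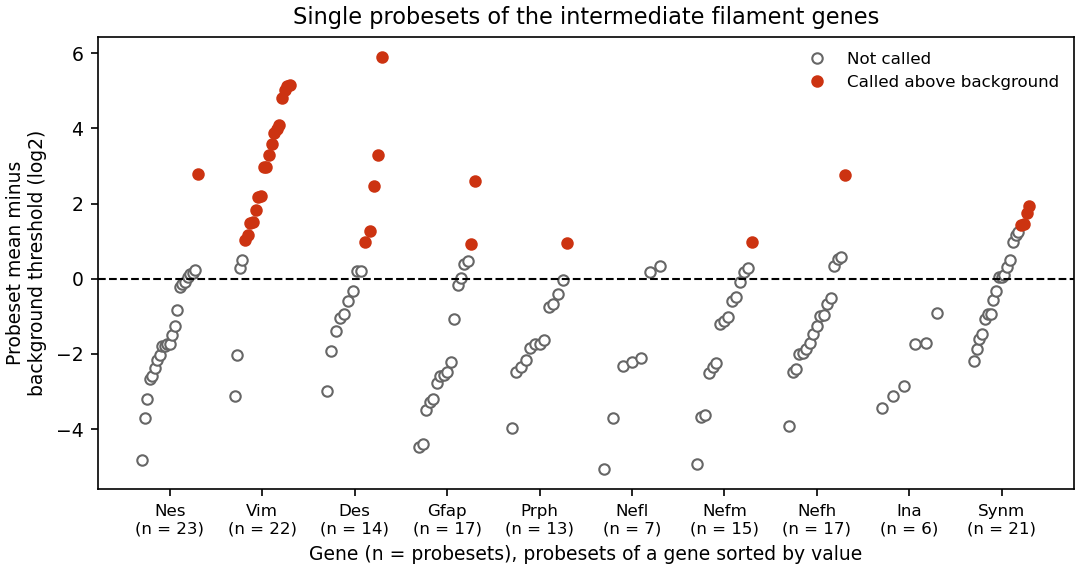
Mean margin of each probeset over the probeset background threshold (log2, mean of 3 arrays), one point per probeset, filled where the probeset was called. Of the Vim probesets 18 of 22 are filled, of the Des probesets 5 of 14, and of the Nes probesets 1 of 23.

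Among the type III genes, Vim gave a clear signal. Its values were 9.79, 9.57 and 9.52 on arrays 1, 2 and 3, with a mean of 9.62 ± 0.15 (SD, n = 3). All 3 values lay far above their thresholds, by a mean of 4.06 with an SE of 0.20 (adjusted p = 6.3e-07, limma), which is 16.6 times the threshold on the linear scale. Its 18 called probesets had means from 8.11 to 12.23, and the 4 others had means of at most 7.58. By share of called probesets, 81.8% for Vim, 98.05% of the 18865 genes ranked lower, and the median share was 26.7% among called genes and 0% among genes not called. Without Vim, the other 9 members had 15 of 133 probesets called (11.3%).

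Des, the desmin gene, was also above background. Its values were 7.32 on array 1, 7.51 on array 2 and 6.93 on array 3, with a mean of 7.25 ± 0.30 (SD, n = 3), each above the threshold of its array. The mean margin was 1.69 with an SE of 0.20 (adjusted p = 7.67e-05, limma), or 3.22 times the threshold on the linear scale. The 14 probesets were uneven. Probeset 5269831 reached 12.92, 12.95 and 13.02, 4839541 had 10.47, 10.78 and 9.87, and 4905141 had 9.53, 9.88 and 9.20. These 3 were joined by 2 further calls, while 9 probesets with means of at most 7.29 were not called. Against the 99th percentile of the background, which called 20.1% of all genes and 2 of the 10 filament genes, Des did not pass (margin 0.46, adjusted p = 0.0655, limma). Its probesets 5269831 and 4839541 kept their calls against the 99th percentile of the chemosensory probesets, with margins of 4.17 and 1.58, where 4.91% of all named probesets were called. Des also did not pass against the 95th percentile of 30 hepatocyte, photoreceptor and spermatid genes (margin 0.34, adjusted p = 0.201, limma), which called 17.9% of all genes. A 95th percentile of 30 genes rests on the few highest of them. Of the 30 genes 3 were themselves called above the chemosensory background, beside 50.6% of all genes, while the list's median margin was -0.77.

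Desmin is shared by muscle and by pericytes, so the marker lists of both were read beside it. Of 11 smooth muscle and pericyte genes 7 were called, with a median margin of 0.60, and 4 without array 1. Of 14 skeletal and cardiac muscle genes 6 were called, with a median margin of 0.15, and 3 without array 2, beside 50.6% of all genes. With the 99th percentile, and also against the hepatocyte, photoreceptor and spermatid genes, 3 of the smooth muscle and pericyte genes were called. In limma 0 of the muscle genes were called under either, where 1 and 0 had an unadjusted p below 0.05. On arrays 1, 2 and 3 the median value was 6.54, 6.01 and 6.34 in the smooth muscle and pericyte list and 5.69, 5.81 and 5.42 in the muscle list. Acta2, the smooth muscle actin gene, had 5.73, 6.01 and 6.34, and Myod1, a master regulator of skeletal muscle, had 6.16, 6.55 and 6.08. Both were called as genes, each with 0 probesets called, and neither stands for its list. Chosen after its values were seen, Mylk, the myosin light chain kinase gene, had 8.48, 8.38 and 8.41, with a margin of 2.85. Of the 14 muscle genes 7 had a mean margin below zero. Also chosen after their values were seen, Tnnt3 had the largest margin of the muscle list, 1.67, and Ttn the smallest, -0.87. The part of both cell types in the Des signal was not tested.

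Gfap and Prph, the remaining type III genes, did not pass. Gfap had 4.81, 4.65 and 4.93 on arrays 1, 2 and 3, below the threshold each time. Of its 17 probesets 2 were called (11.8%), beside 20.5% of all named probesets. Probeset 4892733 had 9.93, 9.11 and 10.01, a margin of 2.61 (adjusted p = 0.00345, limma). The second, 4523007, had 8.08, 7.89 and 8.05, and the count of calls was 1 without array 1 and 1 without array 3. Neither call held with the 99th percentile of the chemosensory probesets as threshold, where 4.91% of all named probesets were called. Prph, the peripherin gene of peripheral neurons, had 5.57, 5.59 and 5.30, and was above the threshold on array 1 only. Of its 13 probesets 1 was called, and that call was lost whichever array was left out.

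Synm, the synemin gene, was above background at a similar margin in each array. It had 7.24, 7.43 and 7.19 on arrays 1, 2 and 3 on the log2 scale. Its mean was 7.28 ± 0.13 (SD, n = 3), at a margin of 1.72 with an SE of 0.18 (adjusted p = 3.61e-05, limma). Of its 21 probesets 4 were called and 7 had an unadjusted p below 0.05, while 9 exceeded the threshold on each array. Those called were 4909938, with a mean of 9.01 and an adjusted p of 0.0496, and 5221493, 5336905 and 5081413, with means between 8.49 and 8.81. The share called, 19.05%, was close to the 20.5% of all named probesets. Against the 99th percentile Synm was called narrowly as a gene (adjusted p = 0.0452, limma), and none of its 4 probeset calls held. Against the hepatocyte, photoreceptor and spermatid genes it did not pass (margin 0.37, adjusted p = 0.146, limma).

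The type IV neuronal genes were at or near the background. Nefl, the light neurofilament subunit gene, had 4.74, 4.73 and 4.85 on arrays 1, 2 and 3, and Ina, the alpha-internexin gene, had 4.75, 4.78 and 4.65. Both lay below the threshold on every array. In limma 0 of 7 Nefl probesets and 0 of 6 Ina probesets were called, also 0 and 0 at an unadjusted p below 0.05. Nefm, the medium subunit gene, had 5.82, 6.24 and 5.96 and passed narrowly, with a margin of 0.44 and an SE of 0.18 (adjusted p = 0.0413, limma). That call was lost without array 1 (adjusted p = 0.0659), without array 2 (0.21) and without array 3 (0.0914). Nefh, the heavy subunit gene, had 5.82, 5.78 and 6.05, above the threshold on all 3 arrays, as 55.0% of all genes were, and did not pass (margin 0.32, adjusted p = 0.115, limma).

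The medium and heavy subunit genes had 1 called probeset each. Of 15 Nefm probesets only 5119863 was called, with 7.89, 8.17 and 8.11, and this call was lost whichever array was left out. Of 17 Nefh probesets only 5054169 was called, with 9.75, 9.75 and 9.97, and it was called again without each array in turn. Like the called Nes probeset, it lost the call with the 99th percentile as threshold (margin 1.03, adjusted p = 0.0622, limma). That threshold called 4.91% of all named probesets. Among the 9548 called genes 19.7% had at most 1 called probeset, and among genes not called 27.0% had exactly 1. A lone called probeset, as in Nes, Prph, Nefm and Nefh, was therefore common on these arrays. These shares take no account of the size of the margin or the number of probesets of a gene. The lone calls had margins of 2.78 in Nes, 2.75 in Nefh, 0.985 in Nefm and 0.956 in Prph, and how common lone calls of each size were was not examined.

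Glial and neuronal markers were mostly at background as well. Of 9 Schwann cell and glial genes 3 were called, beside 50.6% of all genes, with a median margin of -0.11. The glial count was 3 whichever array was left out. Of 9 neuronal genes 1 was called, with a median margin of -0.42, and that call was lost whichever array was left out. The median value on arrays 1, 2 and 3 was 5.42, 5.28 and 5.55 in the glial list and 5.18, 5.17 and 5.01 in the neuronal list. Sox10, the neural crest regulator of Schwann cells, had 6.41, 6.67 and 6.53, and the call in the neuronal list was Tubb3, with 5.93, 6.28 and 5.85. Chosen after its values were seen, S100b had 7.92, 7.75 and 6.345, with the largest margin of the glial list, 1.77. The part of glial and neuronal cells in the signal of Gfap or the neurofilament genes was not tested.

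Single filament genes deviated in both directions between the arrays. After removal of each array's median deviation over all genes, Nes deviated by 0.36, -0.38 and 0.02 on arrays 1, 2 and 3, Des by 0.04, 0.25 and -0.29, Nefm by -0.22, 0.23 and -0.01, and Vim by 0.14, -0.06 and -0.07. The median over the 10 genes was -0.01, 0.00 and -0.03, which lies between members of opposite sign and does not measure how far a single gene moved. The 16 endothelial genes deviated by a median of 0.29, -0.91 and 0.67. On array 2, 16 of 16 were lowest, as were 6419 of all 18865 genes. Of the 16 genes 12 were called, or 7 without array 1, 15 without array 2 and 10 without array 3. The shares of all genes called were 50.6%, 45.4%, 48.5% and 47.4%. With the 99th percentile 1 was called, beside 20.1% of all genes. In limma 0 were called against the hepatocyte, photoreceptor and spermatid genes, where 5 had an unadjusted p below 0.05. That background called 17.9% of all genes. The median endothelial value was 7.06, 6.01 and 7.69. Cdh5, the endothelial cadherin gene, had 9.14, 6.05 and 9.58, and Pecam1, the platelet endothelial adhesion gene, had 8.92, 6.73 and 8.46.

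Nes and the endothelial list were both lowest on array 2. Nes was highest on array 1 and the list's median on array 3. Single endothelial genes differed, with Pecam1 highest on array 1 and Cdh5 on array 3. The Nes probesets did not move as one. Of 23 Nes probesets 9 were lowest on array 2, 7 on array 1 and 6 on array 3, with 1 tie for the lowest. The called probeset 5005084 varied by 0.34 over the arrays. Whether endothelial RNA contributed to the Nes values was not tested. The pan-leukocyte list deviated by -0.24, -0.30 and 0.46, with medians of 5.60, 5.26 and 5.84. It had 4 of 13 called, or 2 without array 1 and 2 without array 3. Of all genes 50.6% were called, or 45.4% without array 1 and 47.4% without array 3. Ptprc, the CD45 gene, had 4.54, 4.37 and 5.14. The cell cycle list, read because nestin marks dividing progenitors in other tissues, had 1 of 9 called, and that call was lost without array 1 and without array 2.

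**Figure D3:**
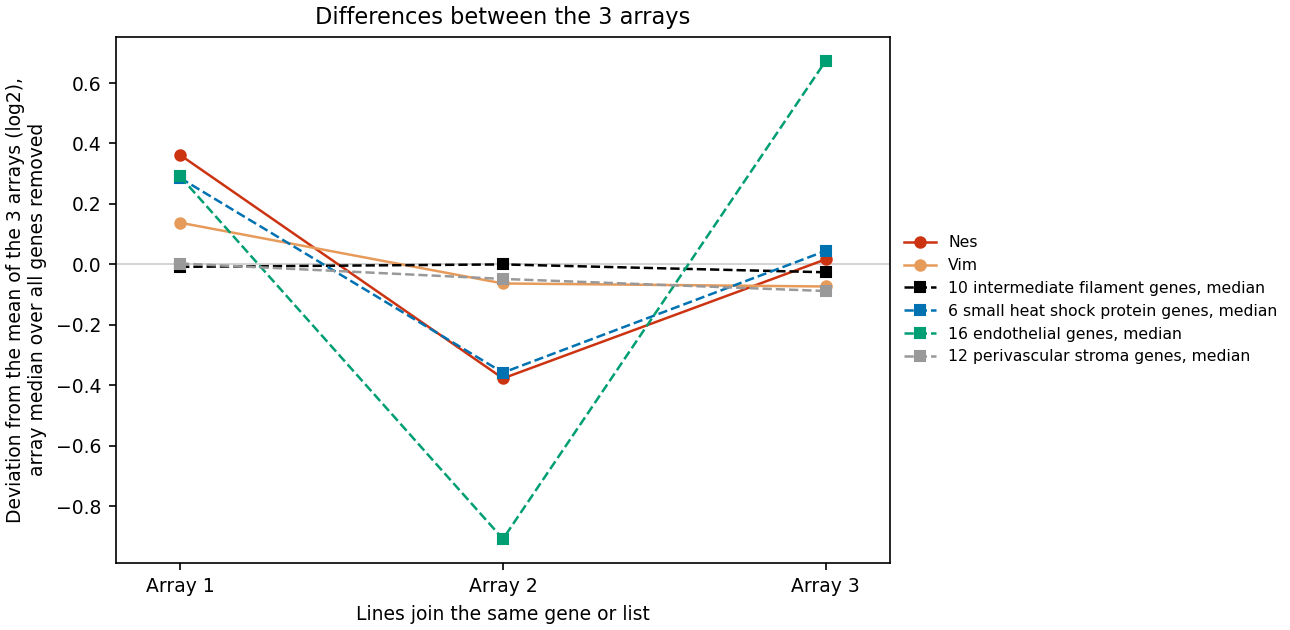
Deviation from the mean of the 3 arrays (log2, each array's median over all genes removed) of Nes, Vim and the medians of 4 gene lists. Nes lies at -0.38 on array 2, the small heat shock protein genes at -0.36 and the endothelial list at -0.91. The median of the 10 filament genes is taken over members that deviate both ways.

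The other genes of the filament system were read from 8 lists, with 27 of 70 measured genes called (38.6%), against 50.6% of all genes, and a median margin of 0.25. Among the nuclear lamins, which line the inner nuclear membrane, Lmna and Lmnb1 were called and Lmnb2 was not. Lmnb1 had 6.08, 6.85 and 7.04 on arrays 1, 2 and 3, Lmna 6.76, 6.55 and 6.11, and Lmnb2 5.65, 5.72 and 5.28. Keratins, the epithelial filament genes, were rarely called, with 1 of 6 in the simple epithelial list and 3 of 20 in the stratified list. Krt8 had 6.10, 6.02 and 5.94 and Krt23 had 4.50, 4.46 and 4.49, and the call of Krt8 was lost whichever array was left out. In the stratified list Krt14 had 6.34, 6.87 and 6.38, Krt10 had 6.31, 6.35 and 6.24, Krt12 had 6.04, 6.60 and 6.00, and Krt76 had 4.69, 3.96 and 4.34. Keratin genes resemble each other, and cross-hybridisation was not examined.

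The lens and syncoilin list had 3 of 3 called. Sync, the gene of the filament protein syncoilin that binds desmin, had 8.36, 7.26 and 6.62 on arrays 1, 2 and 3, a wider spread than any of the 10 filament genes. The lens filament genes Bfsp1 and Bfsp2 had means of 6.46 ± 0.37 and 6.25 ± 0.11 (SD, n = 3). None of the 3 calls held against the 99th percentile.

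Linker genes were called in 6 of 11 cases. Macf1, a giant plakin that joins microtubules and actin, had 8.92, 8.55 and 8.61, with 77 of its 123 probesets called, and Dst, the dystonin gene, had 7.36, 7.30 and 7.72. Jup, the plakoglobin gene of cell junctions, had 7.13, 6.84 and 7.02. Dmd, the dystrophin gene, had 3.88, 3.92 and 3.67 and had 1 of 101 probesets called. Of 10 kinases and modifying enzymes 5 were called, or 3 without array 1. Among the called ones, Prkaca, a catalytic subunit of protein kinase A, had 6.63, 7.83 and 6.37. Cdk5, the kinase known from neurons that acts on nestin and neurofilaments, was also called and had 6.47, 7.51 and 6.56. Padi4, a citrullinating enzyme, had 5.13, 5.19 and 4.99, below the threshold on every array, and was not called.

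Small heat shock proteins, which chaperone filaments, were called in 3 of 6 cases, beside 50.6% of all genes. On array 2, 6 of 6 were lowest, as were 6419 of all 18865 genes. Hspb1 had 8.01, 7.69 and 7.86, with 6 of 12 probesets called, Hspb2 had 6.59, 6.26 and 6.72, and Hspb6 had 7.25, 5.94 and 5.95. Hspb8 had 5.92, 4.54 and 5.90 and did not pass. The list's median deviation was 0.29, -0.36 and 0.05 on arrays 1, 2 and 3, beside the endothelial deviations of 0.29, -0.91 and 0.67, and the part of endothelial RNA was not tested.

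Of 11 genes of the pathways that control nestin in neural progenitors, 4 were called, or 7 where probesets were averaged. The shares of all genes called were 50.6% and 54.2%. Hes1, a Notch target gene, had 8.06, 7.49 and 7.69 on arrays 1, 2 and 3, Sox3, a SoxB1 transcription factor gene, had 7.48, 7.18 and 7.19, and Notch1 had 6.49, 6.78 and 6.62. Pou3f4, a POU factor gene, had 3.75, 3.97 and 3.89. Sox2, which acts on the neural enhancer of nestin and was singled out here after its values were seen, had 4.29, 3.83 and 3.72, below the threshold on every array. The 4 calls became 2 against the 99th percentile.

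**Figure D4:**
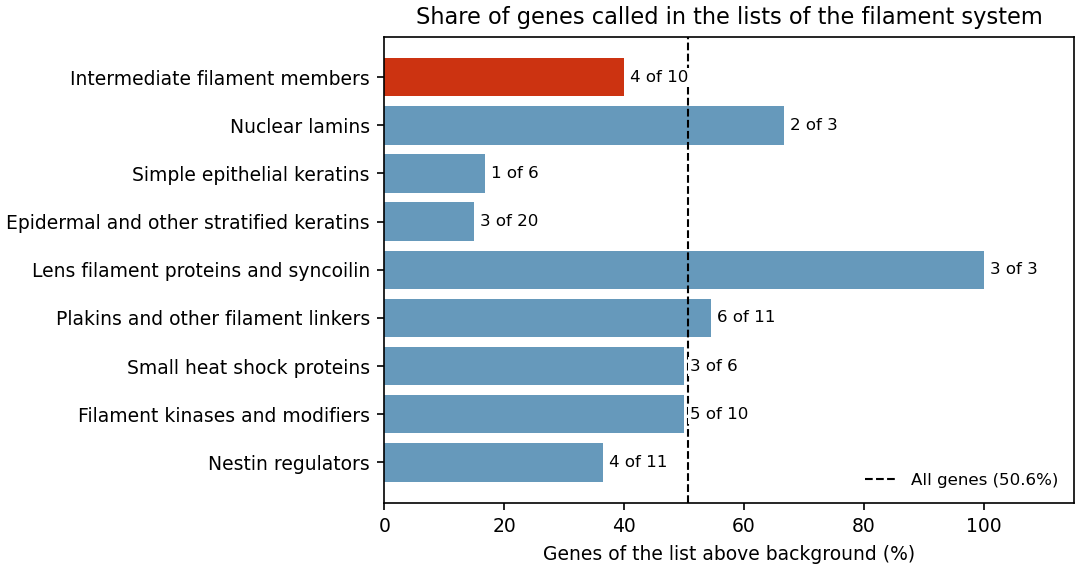
Share of measured genes above background (percent) in the 10 intermediate filament genes and the 8 lists of the filament system, with counts beside the bars and the share of all genes, 50.6%, as a dashed line. The keratin lists have the lowest shares, 16.7% and 15.0%.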

How the data were processed

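Per the labels' protocols, RNA of sorted cells was amplified, labelled with biotin and hybridised to 3 arrays. The deposited values are log2 expression per probeset for 1256831 probesets, made with Affymetrix Expression Console 1.1 and RMA per the submitters' processing notes. The sources used here name neither the RMA settings nor the annotation build. Scanner files, probe sequences and scan dates were not used here, so batches were not examined. Array medians were 5.20, 5.22 and 5.24.

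Probesets were named from the platform annotation, updated through a RefSeq table of assembly GRCm38.p6 (22040 of 22103 genes found). Of all probesets 318760 had 1 symbol, 6684 several and 931387 none. Gene values minus the threshold of the same array were fitted with an intercept-only model in limma 3.58.1 (R 4.3.3), tested one-sided, and tested on simulated data. The variance of each gene was moderated toward that of all genes, so an SE does not rest on that gene's values alone. Uncertainty of the background percentile was not modelled. Pearson's r across genes, which are not independent replicates, was 0.933 to 0.947 between arrays. The number of arrays limits the precision.

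Named genes were all 10 members, up to 3 called genes with the largest margin and the 1 with the smallest in each list of the filament system, and fixed cell type markers. Of the genes this rule names, 1 kinase is not reported here. Members and lists were chosen with earlier results of these data known. No gene is named for likeness of pattern, since 3 arrays of 1 group give none.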

Additional observations from a re-analysis of the deposited data

How the results depend on the processing

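The alternatives were the mean over probesets, a background of 30 hepatocyte, photoreceptor and spermatid genes, the 99th percentile, no probeset minimum, no probesets at 0 (which removed no named probeset), 1 threshold for all arrays, a variance trend and leaving out each array. Vim was called under every one, with margins from 2.71 to 4.15. The count of 4 filament genes became 1 with the other tissue background, where 17.9% of all genes were called, and 2 with the 99th percentile, where 20.1% were. It was 3 whichever array was left out. Of all genes 45.4%, 48.5% and 47.4% were called without arrays 1, 2 and 3. The 27 genes of the other lists became 4, 6 and 12 with the other tissue background, the 99th percentile and no probeset minimum. They became 22 to 26 without 1 array. With no probeset minimum 33.2% of all genes were called. The 33 called member probesets became 13 with the 99th percentile, where 4.91% of all were called, and 26 to 28 without 1 array. Without arrays 1, 2 and 3, 16.7%, 15.8% and 15.0% of all named probesets were called. The other tissue background, the 99th percentile and no probeset minimum had higher thresholds.

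Margins changed sign for 4 genes. With the other tissue background, the 99th percentile and no probeset minimum they were -1.33, -1.21 and -0.47 for Nes, -0.90, -0.79 and -0.044 for Nefm, and -1.03, -0.91 and -0.17 for Nefh. Leaving out 1 array gave margins of -0.27 to 0.242 for Nes and -0.205 to 0.051 for Prph, which was at 0.088 with the mean over probesets. Nefh passed with the mean over probesets (adjusted p = 0.0106, limma) and Nefm did not (0.616). Des and Synm missed the call with the other tissue background (adjusted p = 0.201 and 0.146, limma). Gene values were the same in that setting, and the threshold was higher, at 6.90, 7.08 and 6.75 on arrays 1, 2 and 3. Without array 2 limma pooled the variance of all genes fully. The range of the filament genes' median deviation, 0.03, was 0.03 with the mean over probesets. No paired analysis was possible because there is 1 group.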

Other observations

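Some member probesets differed more between the 3 arrays than their gene's median did. Nes probeset 4343695 measured 6.75 on array 1, 7.89 on array 2 and 2.84 on array 3, a range of 5.05 on the log2 scale and the widest among the 155. Synm probeset 5304427 had 3.73, 8.59 and 7.19, and 5290011 of the same gene had 6.13, 9.62 and 8.99. Nes probeset 5229414 had 8.23, 4.97 and 5.56, and Des probeset 5061750 had 5.72, 7.86 and 4.83. None of these 5 was called. They were chosen after their values were seen. By contrast, the widest range among Vim probesets was 1.07, and the median SD of a probeset over the arrays was 0.19 for Vim, 0.35 for Nes and 0.44 for Synm.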
